A study of Mus musculus with 8 samples.

Results

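Interferon-stimulated genes were examined in kidney RNA of mice given tacrolimus and of control mice. The members are 42 genes fixed by name, and a gene was taken by its name in the array annotation or by an older or newer symbol of the same gene. All 42 were found, on 62 of the 55649 probes with a value on every array, out of 34748 named genes and unnamed transcripts. The mice were of the outbred CD-1 stock, and total RNA of kidneys was hybridised from 4 control samples, given physiological serum, and 4 samples given tacrolimus, an inhibitor of the phosphatase calcineurin that is used against organ rejection, at 1 mg/kg/day for 28 days. Each sample was put on a 1-colour Agilent array, and all samples share the stock, the tissue, the amount of RNA (0.2 ug) and a RIN, the score of RNA integrity, of 9. The labels number the replicates without saying which animal each came from, and a p-value here reflects how far these samples scatter, which may be technical.

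Interferons are secreted proteins that warn cells of infection or damage. Type I interferons (alpha and beta) and interferon-gamma bind separate receptors, and Janus kinases at these receptors phosphorylate STAT proteins, which enter the nucleus. STAT complexes that hold IRF9 bind the interferon-stimulated response element, and others bind the gamma-activated site. The genes so induced encode sensors of foreign RNA and DNA, proteins that block viral translation and replication, the ubiquitin-like protein ISG15 with its enzymes, and large GTPases that attack membranes around intracellular pathogens. In the kidney, tubular, endothelial and immune cells can all respond to interferon.

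A level is the log2 signal of a probe minus that array's 75th percentile, each gene is represented by its brightest probe, and differences are tacrolimus minus control with the SE of the fit. A level tells how a probe compares between arrays, not how abundant one gene is beside another. Between 64.0% and 69.8% of spots per array exceeded the background limit, and the small number of arrays sets the precision. All 8 arrays shared 1 slide, with replicates 1 to 4 of each group in columns 1 to 4. Controls filled row 1 and tacrolimus samples row 2, so that row and treatment cannot be told apart, and the mean local background, in intensity units, was 21.8 to 22.1 for controls and 19.3 to 20.5 for tacrolimus samples. All 10 kidney markers examined, among them Umod of the thick ascending limb, Slc34a1 and Lrp2 of the proximal tubule, Aqp2 of the collecting duct and Nphs1 of the podocyte, were well above background on every array. In RNA of whole kidneys, more cells of a type and more RNA per cell cannot be told apart.

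Most interferon-stimulated genes were higher in the kidneys of tacrolimus-treated mice, by less than 2-fold in the middle of the list. Of the 42 members, 40 were well above background on at least 4 arrays and were tested, and Oas1g and Oas3 were too dim. The fitted difference was above 0 for 38 of the 40 and below 0 for Cmpk2 and Trim25, while 39.5% of all 25127 genes and transcripts tested lay above 0. The median difference of the members was 0.61, against -0.054 over all genes tested. At an unadjusted p under 0.05 (limma), 26 of 40 members were higher (65.0%, against 7.04% of all genes tested) and none was lower, where 8.42% of all genes were. In 16 of 40 every tacrolimus array lay above every control array (40.0%, against 4.35% of all genes), and in none did every tacrolimus array lie below (5.75% of all genes). Adjusted over all genes tested, 1 member passed, Oasl1, beside 0.187% of all genes that passed upwards (0.227% in either direction). The members vary together from array to array, so that these counts are not those of 40 independent measurements. The number at an unadjusted p under 0.05 was 16 without control replicate 3 and 17 without tacrolimus replicate 2. The shares of all genes were then 5.67% and 5.76%. Without tacrolimus replicate 4 the number without overlap was 27. Leaving out an array can only keep or raise that number, and its share over all genes was not counted.

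**Figure D1:**
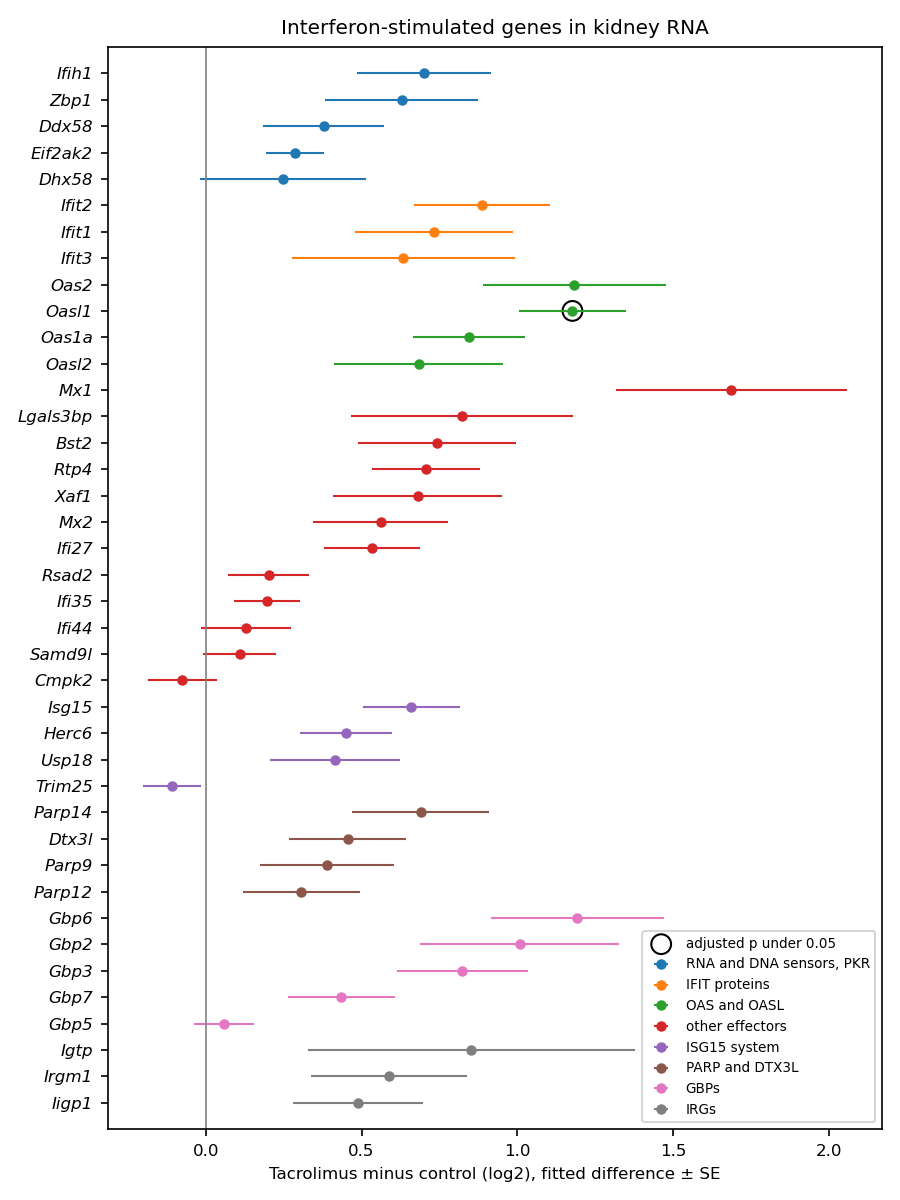
Fitted difference, tacrolimus minus control, with its SE on the log2 scale (x axis) for the 40 tested interferon-stimulated genes (y axis), coloured by role; the circle marks the gene with an adjusted p under 0.05. Points lie to the right of 0 for 38 genes, from Gbp5 at 0.059 to Mx1 at 1.69, and to the left of 0 for Cmpk2 and Trim25.

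The oligoadenylate synthetases, which make a short nucleotide chain that switches on the ribonuclease RNase L, held the member that passed. Oasl1, a relative without synthetase activity that is known to restrain Irf7 in mice, stood at -0.57, -0.76, -0.85 and -0.60 on control replicates 1 to 4 and at 0.59, 0.85, 0.45 and 0.030 on tacrolimus replicates 1 to 4. Every tacrolimus array was above every control array, and Oasl1 rose by 1.18 ± 0.17, a 2.26-fold difference (limma, adjusted p = 0.0470, between 0.0198 and 0.254 over the other settings tried). Without any single array other than tacrolimus replicate 4 it no longer passed, with an adjusted p of 0.0762 to 0.138, while its difference stayed between 1.05 and 1.22. Oas1a, a synthetase, was at 0.71, 0.65, 0.25 and 0.84 on the control arrays and at 1.61, 1.66, 1.55 and 1.01 on the tacrolimus arrays. Its groups did not overlap either, and the difference was 0.84 ± 0.18 (adjusted p = 0.0902), with 0.67 at a further probe. Oas2, a larger synthetase, differed by 1.18 ± 0.29 without overlap, and Oasl2 by 0.68 ± 0.27 with tacrolimus replicate 4 among the controls. All 4 tested members of the family were higher at an unadjusted p under 0.05. Oas3 lay between -8.05 and -6.81 on the control arrays and between -7.94 and -6.33 on the tacrolimus arrays, and the brighter probe of Oas1g between -8.41 and -7.07 and between -8.78 and -7.04. Both stayed below the background limit throughout, so that no fold is given.

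IFIT proteins bind foreign RNA and translation factors and so hold back viral protein synthesis. Ifit2 was at -2.10, -2.25, -2.82 and -2.03 on the control arrays and at -1.003, -1.31, -1.78 and -1.55 on the tacrolimus arrays, without overlap, a difference of 0.89 ± 0.22 (adjusted p = 0.125, limma). Ifit1, which recognises the 5′ end of viral RNA, was at -1.63, -1.62, -1.93 and -1.49 and -0.37, -0.70, -1.03 and -1.64 in the same order. Tacrolimus replicate 4 lay within the control range for Ifit1, and the other tacrolimus arrays above it, with a difference of 0.73 ± 0.25. Ifit3, a partner of Ifit1, differed by 0.63 ± 0.36 and varied widely within the controls, from -0.97 to 0.51. The further gene Ifit3b is nearly the same in sequence as Ifit3, and their signals were not checked for cross-hybridisation.

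The 5 sensors of nucleic acids had a median difference of 0.38, and 3 were higher at an unadjusted p under 0.05. Ifih1, encoding MDA5, which senses long double-stranded RNA, was at -0.69, 0.068, -0.25 and 0.062 on the control arrays and at 0.76, 0.77, 0.33 and 0.13 on the tacrolimus arrays. The groups did not overlap, although control replicates 2 and 4 came close to tacrolimus replicate 4, and the difference was 0.70 ± 0.21 (adjusted p = 0.198). Eif2ak2, the kinase PKR that stops translation on double-stranded RNA, spanned a small range, -0.085, -0.042, -0.25 and 0.048 on the control arrays and 0.17, 0.13, 0.30 and 0.22 on the tacrolimus arrays, again without overlap and with a difference of 0.29 ± 0.093. Zbp1, a sensor of left-handed nucleic acids that can start necroptosis, differed by 0.63 ± 0.24 and by 1.04 at a further probe. Ddx58, encoding RIG-I, differed by 0.38 ± 0.19, with 0.36 at a further probe, and did not pass an unadjusted p of 0.05 at its brightest probe (0.0841). Dhx58, encoding the related LGP2, differed by 0.25 ± 0.27, a value that rests on tacrolimus replicate 1 and was -0.015 without it.

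The 12 other effectors ranged from -0.075 to 1.69, with a median difference of 0.55. Mx1, a GTPase that traps influenza nucleoproteins in the nucleus, was at -3.84, -4.07, -5.34 and -4.77 on the control arrays and at -2.30, -2.56, -2.89 and -3.52 on the tacrolimus arrays. It had the largest fitted difference of the members, 1.69 ± 0.37 or 3.22-fold (adjusted p = 0.0959, limma), and the lowest tacrolimus array exceeded the highest control array. With normexp background correction and the 75th percentile the difference of Mx1 was 0.94 and passed (adjusted p = 0.0297, within a range of 0.0297 to 0.557 over the settings). Rtp4, a receptor transporter protein, was at 0.99, 0.98, 0.67 and 1.24 and then at 2.03, 1.78, 1.57 and 1.34, without overlap, a difference of 0.71 ± 0.17. Mx2, the cytoplasmic Mx protein of the mouse, differed by 0.56 ± 0.22, Lgals3bp, a secreted galectin-binding glycoprotein, by 0.82 ± 0.36, and Xaf1, a pro-apoptotic partner of XIAP, by 0.68 ± 0.27. A further probe of Xaf1 varied from -6.09 to 0.10 and differed by -0.72 ± 1.69, so that the mean of both probes was -0.018. Bst2, or tetherin, which holds budding virions at the cell surface, differed by 0.74 ± 0.25 and Ifi27 by 0.53 ± 0.15, both without overlap between the groups. These 7 genes were higher at an unadjusted p under 0.05, and the remaining 5 effectors were not. Rsad2, or viperin, an enzyme that makes a chain-terminating nucleotide, was at 0.92, 0.73, 0.46 and 0.99 on the control arrays and at 1.03, 1.07, 0.95 and 0.85 on the tacrolimus arrays, a difference of 0.20 ± 0.13. Its neighbour Cmpk2, a mitochondrial nucleotide kinase, differed by -0.075 ± 0.11 and by -0.018 at a further probe. Samd9l differed by 0.11 ± 0.12, Ifi44 by 0.13 ± 0.14 and Ifi35 by 0.20 ± 0.11.

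ISG15 is joined to target proteins as ubiquitin is, and its conjugation and removal have their own enzymes. Isg15 was at 1.04, 1.20, 0.68 and 1.21 on the control arrays and at 1.96, 1.58, 1.76 and 1.48 on the tacrolimus arrays. The groups stood apart, by 0.66 ± 0.15 (adjusted p = 0.112, limma) at the brightest probe and by 0.81 at the other. Herc6, the ligase for ISG15 in mice, was at -2.98, -3.21, -3.20 and -3.21 and at -2.39, -2.53, -2.98 and -2.90, and differed by 0.45 ± 0.15 (adjusted p = 0.221, limma). Control replicate 1 and tacrolimus replicate 3 of Herc6 are equal to 2 decimals, so that the groups only just stand apart. Usp18, the protease that removes ISG15 and dampens the type I receptor, differed by 0.41 ± 0.21 and overlapped between groups. Trim25, a ubiquitin ligase that activates RIG-I, differed by -0.11 ± 0.094 at its brightest probe and by 0.25 at the other, neither past an unadjusted p of 0.05 (0.280 and 0.116).

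Parp14, a macrodomain ADP-ribosyltransferase, was at 1.08, 0.95, 0.79 and 0.99 on the control arrays and at 2.17, 1.93, 1.22 and 1.25 on the tacrolimus arrays, without overlap, a difference of 0.69 ± 0.22. Dtx3l, the ubiquitin ligase that pairs with PARP9, was at -0.29, -0.26, -0.59 and -0.42 and at 0.46, 0.32, -0.17 and -0.34 and differed by 0.46 ± 0.19. At this probe, tacrolimus replicates 1, 2 and 3 exceeded all controls and replicate 4 did not. The other probes of Dtx3l differed by 0.27 ± 0.22 and 0.85 ± 0.53, both with overlapping groups. The 0.85 rests on tacrolimus replicate 4, at -2.48, where the other tacrolimus arrays lay between -4.88 and -4.73. Parp9 differed by 0.39 ± 0.22 and, at a dim further probe, by -0.042, and Parp12 by 0.31 ± 0.19, and neither passed an unadjusted p of 0.05.

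The guanylate-binding proteins and immunity-related GTPases are the classic targets of interferon-gamma in mouse cells, where they assemble on the vacuoles of bacteria and parasites. Gbp6 was at -2.37, -2.32, -2.52 and -2.17 on the control arrays and at -0.28, -1.26, -1.34 and -1.73 on the tacrolimus arrays. No array of one group reached the other, and the difference was 1.19 ± 0.28, 2.29-fold (adjusted p = 0.110, limma), with 1.86 at a further probe. Gbp3 was at 0.60, 0.71, 0.20 and 0.48 and at 1.81, 1.50, 0.93 and 1.04, likewise apart, with a difference of 0.82 ± 0.21. Gbp2 differed by 1.01 ± 0.32 and Gbp7 by 0.43 ± 0.17. Gbp5, which also takes part in inflammasome activation, gave 2 readings: its brightest probe differed by 0.059 ± 0.095 and a further probe by 0.96 (unadjusted p = 0.553 and 0.00845). The further probe of Gbp5 was at -1.55, -1.38, -1.82 and -1.74 on the control arrays and at -0.0038, -0.31, -0.99 and -1.34 on the tacrolimus arrays, without overlap, so that the count of members depends on the probe taken for this gene. The sequences of the guanylate-binding proteins are close to each other, and signal shared between them was not tested.

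Of the immunity-related GTPases, Iigp1 was at 0.10, 0.35, 0.081 and 0.14 on the control arrays and at 1.32, 0.53, 0.43 and 0.36 on the tacrolimus arrays. Control replicate 2 and tacrolimus replicate 4 nearly touch, and the difference was 0.49 ± 0.21, with 1.42 at a further probe. Irgm1, a regulator of the other GTPases and of autophagy, was at 2.27, 2.45, 1.71 and 2.16 and at 3.42, 2.69, 2.49 and 2.34, a difference of 0.59 ± 0.25, with 0.62 at a further probe. Igtp was at 2.22, 2.83, 1.95 and 2.06 and at 4.67, 3.30, 2.49 and 2.01, and tacrolimus replicate 1 stood far above the rest. Its difference of 0.85 ± 0.52 did not pass an unadjusted p of 0.05 (0.141) and was 0.33 without that array.

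**Figure D2:**
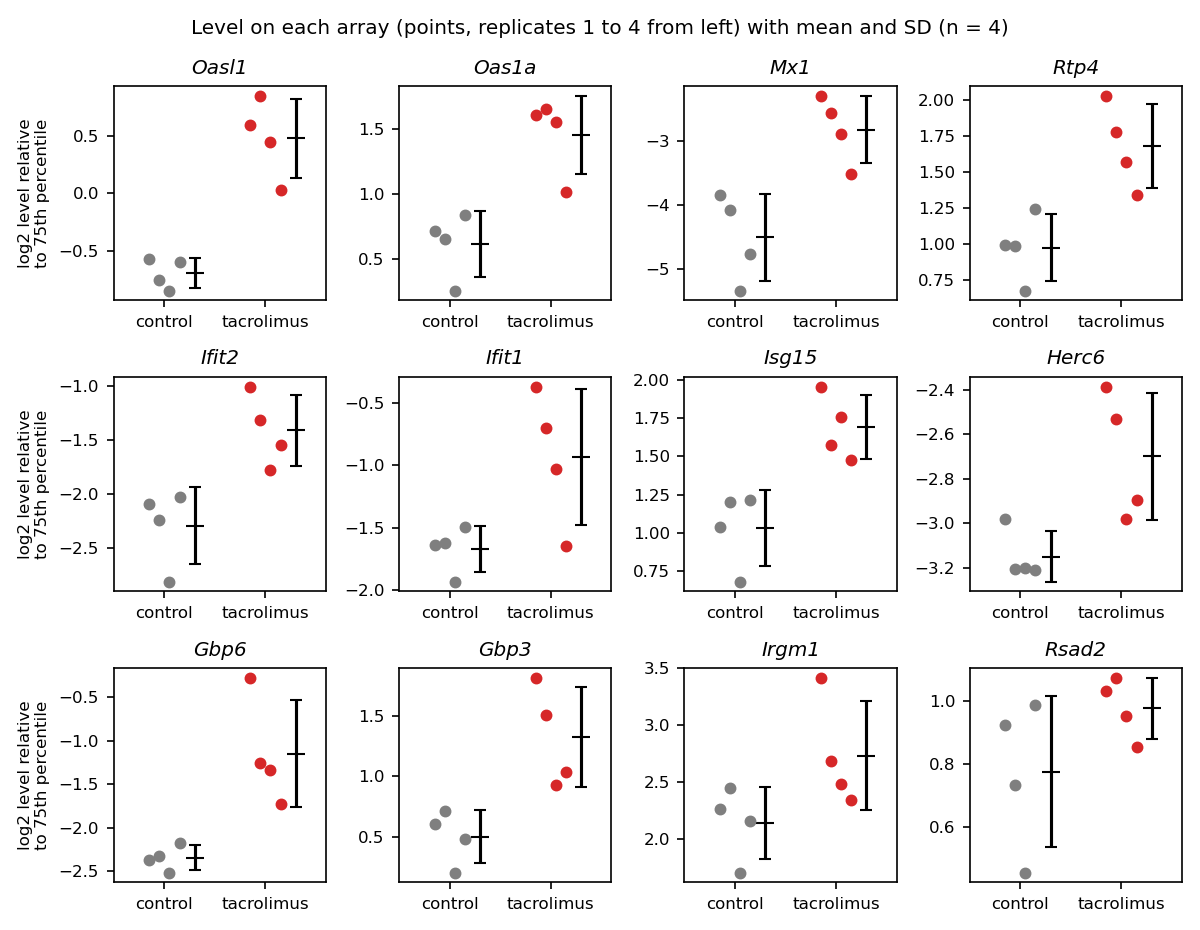
Log2 level relative to the 75th percentile of the array (y axis) on the 4 control and 4 tacrolimus arrays (points) with mean and SD (n = 4), for 12 members. The groups stand apart for Oasl1, Oas1a, Mx1, Rtp4, Ifit2, Isg15, Herc6, Gbp6 and Gbp3, and overlap for Ifit1, Irgm1 and Rsad2.

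The tacrolimus arrays differed among themselves in how high the members were. The score of an array, the mean over the 40 members of the level minus the control mean, was 0.99, 0.72, 0.43 and 0.19 for tacrolimus replicates 1 to 4, in that order, and 0.077, 0.084, -0.26 and 0.10 for control replicates 1 to 4. Tacrolimus replicate 1 held the highest value of its group for 30 of 40 members, where it did so for 18.1% of all genes tested. Tacrolimus replicate 4 held the lowest for 29 of 40, against 31.2% of all genes. In the controls, replicate 3 was lowest for 33 of 40, against 22.8% of all genes. The members above the highest control numbered 37, 33, 27 and 18 of 40 on tacrolimus replicates 1 to 4, where 16.5%, 19.9%, 22.2% and 26.1% of all genes were. By role, the immunity-related GTPases were the most spread, at 1.61, 0.65, 0.27 and 0.043, and the oligoadenylate synthetases were 1.25, 1.29, 1.03 and 0.32, close together on replicates 1 to 3.

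**Figure D3:**
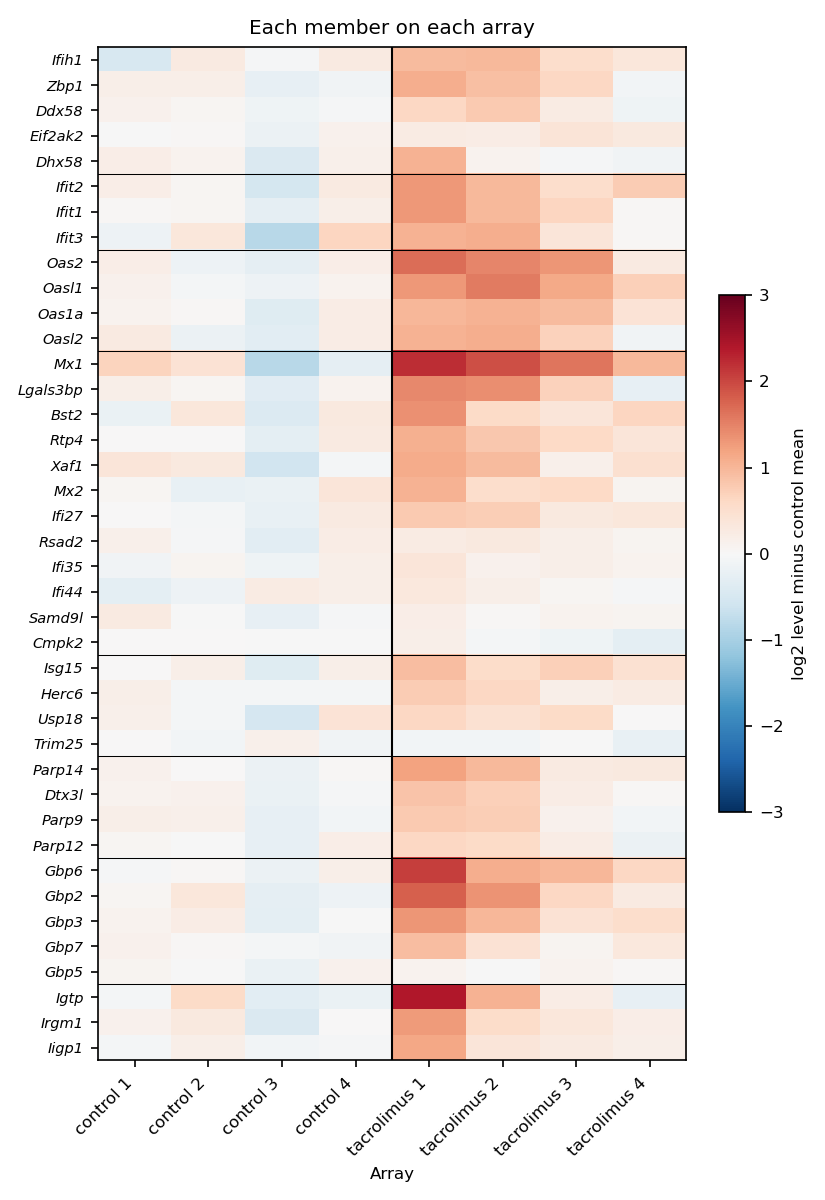
Level of each of the 40 tested members minus its control mean (log2, colour scale from -3 to 3) on the 8 arrays (x axis), with lines between the roles. Tacrolimus replicate 1 is the darkest red column, with 21 members above 1, against 11, 4 and 0 on tacrolimus replicates 2, 3 and 4.

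Markers of other cells differed between the same arrays. Of 12 markers of macrophages and dendritic cells, 9 were higher at an unadjusted p under 0.05 (limma), 2, Itgam and Flt3, were lower, and none passed adjusted over all genes. Their score ran from -0.33 to 0.42 in controls and from 0.47 to 1.25 with tacrolimus, the highest being tacrolimus replicate 2, and all 12 were well above background on every array. Of 12 markers of T cells and natural killer cells 3 were higher at the same threshold, Cd2, Lck and Cd8a, and the score was 0.68, 0.49, 0.27 and -0.23 for tacrolimus replicates 1 to 4, in that order, and 0.41, 0.0039, -0.19 and -0.22 for the controls. Of 6 markers of plasmacytoid dendritic cells, a main source of interferon-alpha, only Bst2, itself a member, was higher at an unadjusted p under 0.05, and Siglech differed by 0.032 ± 0.11 at its brightest probe. Siglech, Itgam and Flt3 have 3 probes each, and only the brightest of each was used here. Among 7 adipocyte markers Lep was too dim to be tested, and Cfd and Fabp4 alone were above background on all 8 arrays. Cfd was at -4.51, 0.025, -4.99 and -5.48 on the control arrays and at 0.51, -0.22, -0.39 and 3.78 on the tacrolimus arrays, with overlap and the highest value on tacrolimus replicate 4, the lowest of its group in the score of the members, and Fabp4 differed by 0.23 ± 0.30. Plin1 exceeded background on 0 of 4 control arrays and was at least 3.55-fold higher, its control level on each array being the higher of its own signal and the lowest among probes well above background, and Adipoq, Cidec and Retn exceeded it on 1, 2 and 3 of 4. The adipocyte score, 2.93, 2.09, 2.20 and 5.38 for tacrolimus replicates 1 to 4 and -0.47, 2.19, -0.84 and -0.88 for the controls, takes those dim control values as they stand, so that it orders the arrays and its size is not a measured difference. The mean level of Adipoq, Plin1, Cidec, Cfd and Retn, dim values included, was also used as a covariate, chosen after seeing the data. This covariate was itself higher on average with tacrolimus, so that it and treatment are in part not told apart. With it 16 members were higher at an unadjusted p under 0.05 and the median difference was 0.69. Over all genes tested 4.33% were higher with it, against 7.04% without it, and the median was -0.067. Control replicate 2 and tacrolimus replicate 4, the arrays highest in the adipocyte score within their groups, were left out together, also after seeing the data. Then 29 members were higher and the median difference was 0.80, against 6.31% and -0.055 over all genes. Of 4 fibroblast markers 3, Col1a1, Pdgfra and Dcn, were higher at an unadjusted p under 0.05, with a score of -0.10 to 0.10 in controls and from 0.43 to 1.21 with tacrolimus. Urothelial markers (4 tested, none at an unadjusted p under 0.05, Upk2 above background on 2 arrays of each group) scored 2.18, -0.64, -0.63 and 3.78 for tacrolimus replicates 1 to 4 and -0.21 to 0.17 in controls, so that replicates 1 and 4 stood apart. All 5 neutrophil and all 5 endothelial markers had differences below 0, with medians of -0.47 and -0.13, and the 4 B cell markers lay between -0.14 and 0.12, none at an unadjusted p under 0.05. The score of the 10 kidney markers overlapped between the groups, at -0.11 to 0.15 in controls and from -0.18 to 0.030 with tacrolimus. Of these markers 1, Aqp1, was lower by the unadjusted p and without overlap. The part of immune cells, fat, urothelium and fibroblasts in the difference of the members was not tested.

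**Figure D4:**
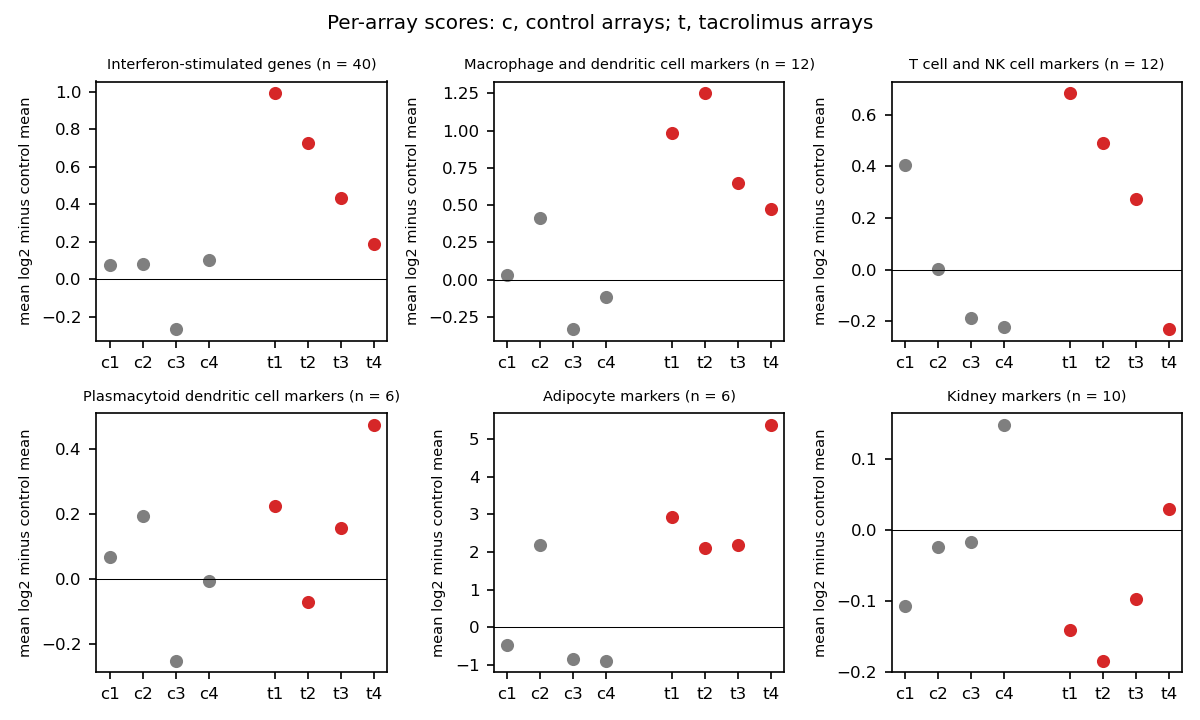
Mean log2 level minus the control mean (y axis) over the tested genes of 6 lists on control arrays 1 to 4 (grey) and tacrolimus arrays 1 to 4 (red); each panel has its own scale. The interferon-stimulated genes and the macrophage and dendritic cell markers lie higher on all tacrolimus arrays, and the adipocyte panel, whose control values include probes below background, is highest on tacrolimus array 4.

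Promoters are shown because the members are named for a shared induction by interferon. Of the 42 members, 30 have a window from 250 bases before to 50 after a transcription start in the RefSeq table of GRCm38.p6. The core of the interferon-stimulated response element was searched as TTTCNNTTTC on both strands, with N for any base. It was found in 17 of 30 members (56.7%) and in 3.99% of the 27025 genes of the table (3.44% of its 32851 windows). The longer form AGTTTCNNTTTC, which contains the core, was in 11 of 30 (36.7%), against 0.303% of all genes. The gamma-activated site TTCNNNGAA was in 8 of 30 (26.7%), against 9.55% of all genes. The members were named as interferon targets in the first place, so that these shares describe the list. The 150 bases before the start are given 5′ to 3′ on the strand of the gene, with matches of the core or its reverse complement in capitals, for 1 tested member of each role with a match in those bases, and for Rsad2, which has a match and differed little, and Oasl1, which passed. The matches of the sensors Ifih1, Ddx58 and Eif2ak2 lie after the start, and the windows of Parp12 and Dtx3l have none. The matches of Isg15, Bst2, Oas1a, Gbp3 and Irgm1 overlap each other and run together.
Ifit1: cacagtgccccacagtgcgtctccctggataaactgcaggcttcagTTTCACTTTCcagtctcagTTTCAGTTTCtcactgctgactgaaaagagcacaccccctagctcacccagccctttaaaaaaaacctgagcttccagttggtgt
Isg15: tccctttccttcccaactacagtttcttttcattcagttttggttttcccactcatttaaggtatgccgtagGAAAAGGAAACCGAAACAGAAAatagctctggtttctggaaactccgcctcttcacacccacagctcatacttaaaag
Oas1a: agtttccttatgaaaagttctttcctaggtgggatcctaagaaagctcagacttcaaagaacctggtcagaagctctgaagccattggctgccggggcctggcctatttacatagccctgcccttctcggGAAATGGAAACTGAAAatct
Bst2: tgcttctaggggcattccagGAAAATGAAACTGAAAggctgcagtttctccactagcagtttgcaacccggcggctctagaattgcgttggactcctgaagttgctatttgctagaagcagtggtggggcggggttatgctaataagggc
Gbp3: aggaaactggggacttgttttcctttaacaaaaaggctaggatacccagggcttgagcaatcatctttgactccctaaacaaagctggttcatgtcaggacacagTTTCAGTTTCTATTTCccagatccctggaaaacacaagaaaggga
Irgm1: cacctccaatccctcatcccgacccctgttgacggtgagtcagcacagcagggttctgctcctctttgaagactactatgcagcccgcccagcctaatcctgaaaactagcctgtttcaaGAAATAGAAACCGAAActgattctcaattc
Rsad2: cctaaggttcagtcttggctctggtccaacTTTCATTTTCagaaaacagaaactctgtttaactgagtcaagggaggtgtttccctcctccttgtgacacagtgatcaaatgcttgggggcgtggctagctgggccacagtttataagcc
Oasl1: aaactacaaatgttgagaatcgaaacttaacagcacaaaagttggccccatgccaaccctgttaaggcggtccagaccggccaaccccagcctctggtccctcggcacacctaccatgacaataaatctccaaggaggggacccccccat
On GRCm38.p6 these lie at chr19:34640739-34640888 (Ifit1, plus strand), chr4:156200819-156200968 (Isg15, minus), chr5:120907526-120907675 (Oas1a, minus), chr8:71537473-71537622 (Bst2, minus), chr3:142559894-142560043 (Gbp3, plus), chr11:48871421-48871570 (Irgm1, minus), chr12:26456453-26456602 (Rsad2, minus) and chr5:114923090-114923239 (Oasl1, plus). Counted from the start, the first capital stands at -104 in Ifit1, -78 in Isg15 and -20 in Oas1a. Tested members with the core numbered 15, of which 10 were higher at an unadjusted p under 0.05, with a median difference of 0.66. Those without it numbered 13, of which 7 were higher, with a median of 0.45. The largest difference without a match was 1.18, of Oasl1, and the smallest with one was 0.059, of Gbp5.

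Many members lie side by side in the genome. On the mm9 assembly, which the array annotation uses, the probes of 20 members formed 7 groups with gaps of at most 300 kb. Ifit2, Ifit3 and Ifit1 share 73.6 kb of chromosome 19 (from 34650244 to 34723855) and differed by 0.63 to 0.89. Gbp5, Gbp7, Gbp3 and Gbp2 share 119.4 kb of chromosome 3 (from 142181426 to 142300778) and differed by 0.059 to 1.01. Oas2 and Oas1a, with the dim Oas3 and Oas1g, share 166.5 kb of chromosome 5, and Oasl2 and Oasl1 share 25.8 kb elsewhere on it. Parp14, Dtx3l and Parp9 share 139.6 kb of chromosome 16, and Mx1 and Mx2 share 113.7 kb of it. Rsad2 and Cmpk2 share 36.3 kb of chromosome 12 (from 27127859 to 27164178), and theirs was the single group in which no tested gene was higher at an unadjusted p under 0.05. The probe of Oasl1 lies on chromosome 5 from 115387861 to 115387920, and exon annotation of mm9 was not used here.

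The genes upstream of the members were also measured. Of 15 interferon ligands on the array, Ifna4, Ifna11, Ifnb1 and Ifne were too dim to be tested. Of the 11 tested, none was higher at an unadjusted p under 0.05 (limma), and Ifnab and Ifnz were lower, with differences of -0.32 ± 0.085 and -0.91 ± 0.35. Ifng, the ligand from T cells and natural killer cells, was at -4.31, -4.83, -5.28 and -4.90 on the control arrays and at -3.31, -3.86, -4.76 and -5.43 on the tacrolimus arrays, a difference of 0.49 ± 0.44 with overlapping groups. The interferon-alpha genes are close copies of each other, so that their probes may share signal. None of the 6 receptor chains passed an unadjusted p of 0.05, with differences from -0.14 (Ifnar2) to 0.25 (Ifngr1).

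Of 5 signal transducers, Stat2 and the kinase Tyk2 were higher at an unadjusted p under 0.05, by 0.46 ± 0.17 and 0.33 ± 0.13, and Jak1, Jak2 and Irf9 were not. Among 7 inhibitors Socs3, a feedback inhibitor of Janus kinases that other cytokines also induce, differed by 1.07 ± 0.23 without overlap (adjusted p = 0.0935), and Socs1 and Ptpn1 by 0.37 ± 0.19 and 0.12 ± 0.092. The interferon regulatory factors Irf7, Irf8 and Irf1, themselves interferon-induced, were higher at an unadjusted p under 0.05, by 0.95 ± 0.25, 0.87 ± 0.24 and 0.79 ± 0.23, and Irf2, Irf3 and Irf5 were not. In the list of nucleic acid sensing 7 of 14 were higher. Tmem173, the adaptor STING, differed by 0.80 ± 0.17, Trex1, a nuclease that removes cytosolic DNA, by 0.35 ± 0.087, and the RNA receptor Tlr3 by 0.52 ± 0.13, each without overlap. Of further kinases and adaptors, Ikbke was higher by the unadjusted p, by 0.45 ± 0.16 with overlapping groups. Tbk1, Mavs, Myd88, Ticam1 and Traf3 had differences from -0.11 to 0.040. Over the whole pathway 13 of 49 tested genes were higher and 2 were lower by the unadjusted p (26.5% higher, against 7.04% of all genes tested), none passed adjusted over all genes (lowest adjusted p = 0.0831, Tmem173), and the median difference was 0.018. With the adipocyte covariate 4 of the pathway genes, in place of 15, were under an unadjusted p of 0.05 in either direction. Of all genes tested 7.04% were higher and 8.42% lower by the unadjusted p without the covariate. With the covariate 4.33% were higher, and the share that were lower was not counted.

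**Figure D5:**
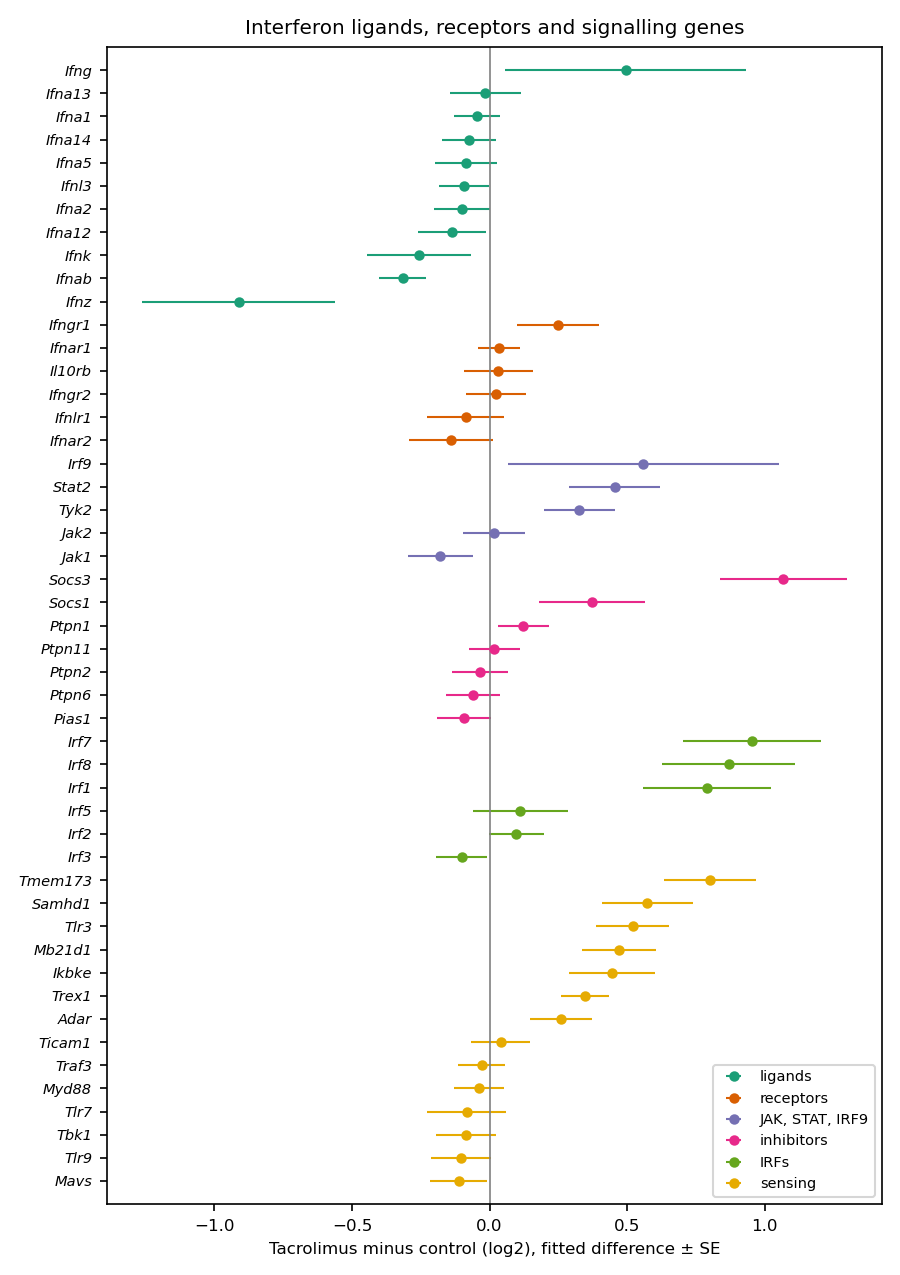
Fitted difference, tacrolimus minus control, with its SE on the log2 scale (x axis) for 49 tested interferon ligands, receptors and signalling genes (y axis), coloured by role. Irf7, Irf8, Irf1, Socs3 and Tmem173 lie between 0.79 and 1.07.

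Close relatives of the members that are not on the list were also measured. Of 27 tested, 12 were higher and 1, Parp11, was lower by the unadjusted p (44.4% higher, against 7.04% of all genes), and the median difference was 0.48. With the adipocyte covariate the 13 under an unadjusted p of 0.05 in either direction became 6. Of all genes 7.04% were higher and 8.42% lower by that p without the covariate. With the covariate 4.33% were higher, and the share that were lower was not counted. Ifi27l2a, an interferon-induced protein of the Ifi27 family, was at 2.30, 2.59, 1.69 and 2.21 on the control arrays and at 3.64, 3.39, 3.53 and 3.54 on the tacrolimus arrays. It rose by 1.32 ± 0.18, and was the 1 relative that passed over all genes (limma, adjusted p = 0.0404). Gbp2b differed by 2.50 ± 0.53, a gene that was above background on 2 of 4 control arrays, Tgtp1, an immunity-related GTPase, by 1.40 ± 0.39 and Gbp11 by 1.12 ± 0.34. Oas1f differed by 0.83 ± 0.16, while Oas1b differed by -0.053 ± 0.082. Of the Ifitm genes, whose products block entry of viruses, Ifitm1, Ifitm2 and Ifitm3 differed by 0.23, 0.13 and -0.085 and none passed an unadjusted p of 0.05.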

How the data were processed

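Kidney RNA was measured on 8 arrays, 4 per group, and read with Feature Extraction (Agilent, version 10.7.3.1). Per the file headers, its processed column is a background-subtracted, spatially detrended intensity per spot with no normalization between arrays. Raw mean and median intensities and local background, as deposited, were used for alternatives. The deposited table holds log2 values: quantile normalization of the raw median intensities followed by log2 gives every column to within 5e-09, with medians from 6.30 to 6.32. The submitters' processing notes name limma, with settings not given in the sources used here.

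The processed intensity was put on the log2 scale, and the 75th percentile over the 59305 non-control spots of each array was subtracted. Outlier spots (147 to 194 per array) were left out, spots of a probe averaged, and probes well above background on at least 4 of 8 arrays tested (36493 probes, 25127 genes and unnamed transcripts, brightest probe per gene). Symbols came through the accession from a RefSeq table of GRCm38.p6 (28026 probes matched), and promoter windows from one of the same build. The comparison used lmFit and eBayes of limma 3.58.1 under R 4.3.3, two-sided, with Benjamini-Hochberg adjustment over the 25127 and a threshold of 0.05, and the procedure was tested on simulated data. The members and lists were chosen with earlier results of these data known. All 42 members are named, with the value on every array for those that passed, for the 2 of each role with the lowest p and, as ranges, for the dim ones. Of the lists of upstream genes up to 3 each, and of the relatives up to 5, with the lowest p were to be named, and others named there were chosen after their values were seen. A result of the upstream list is not reported here. Array scores of the lists average the tested genes, including arrays where a probe is below background. Alternatives were quantile or median scaling, normexp correction (offset 50), the deposited table, other filters, averaging over the probes of a gene, an intensity trend, array weights, the replicate block and leaving out each array.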

Additional observations from a re-analysis of the deposited data

Results flagged for a closer look

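Values of each member and of their score were examined in both groups of 4 arrays, 82 groups in all, for an array whose gap to its nearest neighbour exceeds Dixon's 95% limit, which chance gives in about 1 of 20 groups. There were 5. The score of the members was -0.26 on control replicate 3, with the next control at 0.077. Dhx58 was at -3.76 on the same array, with the next control at -3.23, and at -2.29 on tacrolimus replicate 1, with the next at -3.23. Oas1a was at 1.01 on tacrolimus replicate 4, with the next at 1.55. Herc6 was at -2.98 on control replicate 1, with the next at -3.20.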

How the results depend on the processing

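The number of members that passed adjusted over all genes (1, Oasl1) was 0 with quantile normalization, with no filter on dim probes, with the replicate block, with the adipocyte covariate and without the arrays highest in adipocyte markers, 2 with normexp and the 75th percentile, and 3 with array weights. The cause was not tested. Leaving out each array in turn gave 0 to 2 members that passed, 16 to 31 at an unadjusted p under 0.05, 16 to 27 whose groups do not overlap, and median differences of 0.43 to 0.73. Without the arrays highest in adipocyte markers 28 did not overlap. Leaving out arrays can only keep or raise the number without overlap, and its share over all genes was not counted. Without each array in turn, 5.67% to 7.32% of all genes tested were higher at an unadjusted p under 0.05. With the adipocyte covariate 16 members, 4 pathway genes and 6 relatives were under an unadjusted p of 0.05 in either direction, against 26, 15 and 13. The fit with the covariate has fewer degrees of freedom. The covariate was itself higher on average with tacrolimus, so that covariate and treatment are in part not told apart. Of all genes tested 4.33% were higher by the unadjusted p in that fit, and none passed adjusted. Without the covariate 7.04% were higher and 8.42% lower, and the share that were lower with it was not counted. The replicate block left 25 members higher at an unadjusted p under 0.05, where 7.99% of all genes tested were. The labels do not say that the numbers pair the samples, but same-numbered samples shared a column of the slide. The levels themselves correlated at 0.982 to 0.993 between arrays. After the mean of its group was subtracted from each gene, same-numbered samples correlated at 0.156, 0.0207, 0.143 and 0.0552. In these deviations from the group mean, every control correlated best with the tacrolimus sample of its own number. So did every tacrolimus sample but replicate 2 with its control. Whether the samples are paired, by column or otherwise, was not tested.

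Of the 40 members 35 kept their direction in all 21 settings. The exceptions were values near 0: Xaf1 (-0.018) and Trim25 (0.073) with the mean of a gene's probes, Gbp5 (-0.0049) without control replicate 3 (to 0.10 without another array), Dhx58 (-0.015) without tacrolimus replicate 1 (to 0.36), Cmpk2 (0.0013) without the arrays highest in adipocyte markers, and Cmpk2 (0.032) and Trim25 (0.037) with the covariate. Among all genes, 82.5% of those that passed were higher, and 68.7% under normexp with quantile normalization. Probes near background limit Oas1g, Oas3 and the ligands Ifna4, Ifna11, Ifnb1 and Ifne.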

Other observations

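Of the 17 further probes of tested members that passed the filter, 14 differed in the same direction as the brightest probe and 9 were higher at an unadjusted p under 0.05 (limma), none lower. The share over all probes was not counted, and these probes measure genes already counted, on the same arrays. The exceptions in direction were the further probes of Parp9, Trim25 and Xaf1. The further probe of Xaf1 took 2 levels in both groups, -5.14, -6.09, -0.48 and -0.039 on control replicates 1 to 4 and -4.75, -4.86, 0.10 and -5.12 on tacrolimus replicates 1 to 4, with control replicates 3 and 4 and tacrolimus replicate 3 high. Irf9 also varied within groups, at 1.25, 1.48, 3.01 and 1.36 on the control arrays and 3.18, 1.70, 1.59 and 2.87 on the tacrolimus arrays, with control replicate 3 and tacrolimus replicates 1 and 4 high. Control replicate 3, the lowest control in 33 members, was the highest control in 2, Ifi44 at 0.78 and Trim25 at 5.31. These genes were chosen after their values were seen.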
